A study of Mus musculus with 6 samples.

Results

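The regions described here are open chromatin peaks inside the longest protein-coding genes of the mouse, called giant genes below. A giant gene was a protein-coding RefSeq gene on chromosomes 1 to 19 or X with a span of 500 kb or more, and 227 of 21631 genes (1.05%) met this rule. The peaks of 6 libraries were merged where they overlapped by 1 bp or more, and a merged region belonged to a giant gene when it lay wholly inside the span and more than 1 kb from either gene end. This gave 16243 regions, or 4.02% of the 403801 merged regions of the series. Neither rule used the height of a peak or the age of a library. Of the 16243 regions, 177 lay inside a second giant gene that overlapped the first, and 1 giant gene, Skint5, held none.

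The libraries are ATAC-seq libraries, in which a transposase inserts adapters where DNA is accessible, from wild-type (WT) BALB/c mice of 2 ages. The young group came from animals of 3 weeks and the old group from animals of more than 78 weeks, with 3 libraries in each group. All 6 libraries were made from marrow cells set free by crushing leg and arm bones, then grown in medium once the non-adherent part was gone, with the surface phenotype F4/80+CD169+. The labels do not say whether the replicates are separate mice or separate cultures, so the p-values below measure the spread between these libraries. The title of the series concerns how marrow age influences B-cell acute leukaemia, and the comparison of giant genes asks how these long transcription units are opened in the macrophages of each age.

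Genes of this length consist almost wholly of introns. Many encode adhesion molecules, receptors and channels of neurons, and a smaller number encode transcription factors and signalling proteins that leukocytes use. The interior of an active long gene can hold enhancers and alternative starts of the gene itself, and may also host smaller genes, while a long gene that is silent in a cell type is often packed in closed chromatin. An ATAC-seq peak marks an accessible stretch, such as a promoter or an enhancer, without showing which gene it acts on. Several long genes span common fragile sites, regions that break under replication stress.

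Some of the strongest open regions lay over annotated starts inside giant genes, and the 250 bases before 5 of these starts show how unlike such promoters are. They are the RefSeq sequences of GRCm38.p6 (the build mm10), plus strand, 5′ to 3′. Capitals mark GGGCGG or its reverse complement, the core of the GC box, searched on both strands. Every window overlapped a region found in all 6 libraries. Frmd4a, Nav2, Pde4b and Arhgap6 are inner starts of the giant gene itself, those of 4 genes with the best-ranked regions among those considered, and Cstf2t is a separate gene inside Prkg1 that ranked best of the hosted protein-coding genes.
Frmd4a, chr2:4559504-4559753: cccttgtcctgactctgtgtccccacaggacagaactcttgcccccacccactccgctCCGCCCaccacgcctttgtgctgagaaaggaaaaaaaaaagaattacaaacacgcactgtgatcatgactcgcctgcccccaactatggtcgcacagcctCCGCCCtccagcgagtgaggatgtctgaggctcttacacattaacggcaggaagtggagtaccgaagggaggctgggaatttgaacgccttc
Nav2, chr7:49245939-49246188: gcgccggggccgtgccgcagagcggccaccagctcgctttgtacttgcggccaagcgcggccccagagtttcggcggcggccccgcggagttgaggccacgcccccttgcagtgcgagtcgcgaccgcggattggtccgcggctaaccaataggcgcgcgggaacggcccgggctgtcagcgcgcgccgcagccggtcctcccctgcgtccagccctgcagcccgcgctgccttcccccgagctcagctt
Pde4b, chr4:102569810-102570059: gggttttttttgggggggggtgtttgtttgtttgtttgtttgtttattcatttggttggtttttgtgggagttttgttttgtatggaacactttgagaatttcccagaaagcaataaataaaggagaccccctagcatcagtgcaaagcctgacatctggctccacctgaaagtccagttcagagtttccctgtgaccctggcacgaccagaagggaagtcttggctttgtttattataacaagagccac
Arhgap6, chrX:169036361-169036610: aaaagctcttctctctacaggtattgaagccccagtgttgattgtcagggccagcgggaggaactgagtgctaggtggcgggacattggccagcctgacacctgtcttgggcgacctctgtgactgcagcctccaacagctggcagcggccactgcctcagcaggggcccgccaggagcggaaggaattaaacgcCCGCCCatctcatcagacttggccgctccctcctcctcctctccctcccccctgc
Cstf2t, chr19:31082591-31082840: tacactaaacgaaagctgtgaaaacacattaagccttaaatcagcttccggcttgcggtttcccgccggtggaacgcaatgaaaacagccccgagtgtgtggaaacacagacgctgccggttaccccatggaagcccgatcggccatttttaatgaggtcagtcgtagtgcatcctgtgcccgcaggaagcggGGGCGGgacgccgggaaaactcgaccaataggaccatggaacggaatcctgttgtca

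The Nav2 window, before a start of a gene for a neuron navigator protein, held 74.4% G and C and an observed to expected CpG ratio of 1.05. The Pde4b window, before a start of a cAMP phosphodiesterase gene, held 43.2% G and C and a CpG ratio of 0.0894. Neither held GGGCGG, while the window of Frmd4a, a scaffold protein gene, held 2 copies and those of Arhgap6, a GTPase-activating protein gene, and Cstf2t, an mRNA 3′-end processing factor gene, held 1 each. Peak strength was read as a percentile within the library's own list, ranked by −log10 q, since the caller's values are comparable only there. The Nav2 region ranked at the 95.6th percentile or higher in every library and the Pde4b region at the 92.4th or higher. The Cstf2t region ranked at the 99.8th percentile or higher.

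The lists held 215947 to 254410 peaks covering 48.2 to 66.1 Mb, and young 1, young 3 and old 1 had the longest lists. Read depth is unknown, so a deeper library could have a longer list. Old 2 had more regions of its own than the rest. Of 11 macrophage marker genes, 10 had a peak among the 50000 strongest in all 6 libraries, counting 1 kb around the gene. The exception was Siglec1, the gene of CD169, which had such a peak in 1 library only, although 4 to 7 deposited peaks lay there in each. Of the other markers, 2 of 4 for B cells, 1 of 3 for T cells, 3 of 5 for stromal cells, 2 of 4 for neutrophils and 1 of 3 for erythroid cells had a strong peak in all 6. Cd79a, Cd3e, Cd3g, Lepr, Elane, Ly6g, Gata1 and Hba-a1 had none in any library. The strong peaks of the macrophage list summed to 30 to 35 in young and 26 to 28 in old libraries, and those of the stromal list to 7 to 9 and 9 to 11. The part of these shifts in the results below was not tested.

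Giant gene interiors, the spans without 1 kb at each end, covered 190 Mb, or 7.23% of the chromosomes used, and held few peaks for their size. Peaks per 100 kb numbered 4.78, 4.04 and 5.06 in young 1, 2 and 3 and 4.76, 4.41 and 4.04 in old 1, 2 and 3. The 3 libraries with the longest lists had the highest densities, and the young and old values overlapped. Over the 6 libraries the mean was 4.52 ± 0.42 peaks per 100 kb (SD, n = 6), against 12.2 ± 0.93 in genes of 100 to 500 kb, 14.6 ± 0.92 in genes under 100 kb and 5.92 ± 0.41 outside protein-coding genes. Giant genes were sparser than each of these, DNA outside protein-coding genes included, in every library.

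In the interiors of all other genes the density was 13.4 ± 0.93 peaks per 100 kb, so that giant genes stood at 0.338 of it, with a range of 0.319 to 0.349 over libraries. On the log2 scale the mean ratio was -1.57 against all other interiors and -1.43 against genes of 100 to 500 kb. Every library gave a lower value in giant genes, and an exact sign-flip permutation test over the 6 libraries gave p = 0.031, the smallest it can give, and an adjusted p of 0.0333 over 16 comparisons. Among the 50000 strongest peaks of each library there were 0.667 ± 0.027 peaks per 100 kb in giant genes and 2.52 ± 0.011 in other interiors (SD, n = 6).

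**Figure D1:**
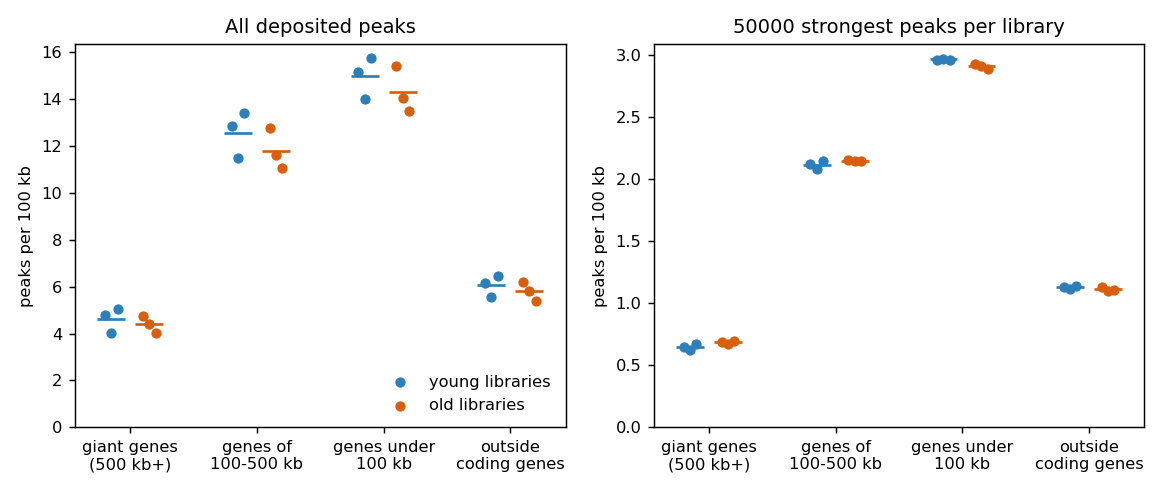
Peaks per 100 kb of giant gene interiors, interiors of genes of 100 to 500 kb and under 100 kb, and DNA outside protein-coding genes, for all deposited peaks (left) and the 50000 strongest per library (right). Each point is a library and each bar the mean of 3; giant genes sit lowest in both panels, between 4.04 and 5.06 on the left, and the young and old points of the giant genes lie close together.

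Age made no difference to overall density that exceeded the spread between libraries. The young mean was 4.63 ± 0.53 and the old mean 4.40 ± 0.36 peaks per 100 kb (SD, n = 3 each, exact permutation test, two-sided p = 0.50, where 0.10 is the smallest possible). Relative to other interiors, giant genes stood at 0.337 ± 0.016 in young and 0.339 ± 0.0074 in old libraries (SD, n = 3 each, exact permutation p = 0.90). On the lists of 50000 strongest peaks the ratio was 0.257, 0.248 and 0.266 in young 1, 2 and 3 and 0.273, 0.267 and 0.276 in old 1, 2 and 3. These groups did not overlap, the old being higher, and the exact permutation p was 0.10, the smallest the design allows. The densities behind the ratio were 0.648 in young and 0.685 in old for giant genes (exact permutation p = 0.20). Genes of 100 to 500 kb were also higher in old, at 2.12 and 2.15 (exact permutation p = 0.20). Genes under 100 kb were lower in old, at 2.97 and 2.91 (exact permutation p = 0.10). The rise was thus not shown to be particular to giant genes. A lower peak signal can come from fewer cells with an open site or from less opening per cell, and bulk libraries cannot tell these apart.

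Peaks inside giant genes were also weaker and slightly narrower. Their median percentile in the library's list was 44.2 (SD 1.28, n = 6) against 48.2 (SD 0.28) in other interiors, lower in 6 of 6 libraries (exact sign-flip permutation p = 0.031, adjusted p = 0.0333). Median width was 146.5 ± 13.6 bp against 152.3 ± 10.97 bp, again lower in 6 of 6 with the same p-values, and against genes under 100 kb it was lower in 3 of 6 (exact sign-flip permutation p = 0.25). Giant genes held 3.73, 3.45 and 3.79% of all deposited peaks in young 1, 2 and 3 and 3.69, 3.69 and 3.56% in old 1, 2 and 3. Of the 50000 strongest they held 2.47 ± 0.098% in young and 2.61 ± 0.041% in old, a mean of 2.54% over the 6 libraries, with an exact permutation p of 0.20 for age (n = 3 each).

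A region of a giant gene was seldom shared by the whole set of libraries. Of the 16243 regions, 4013 (24.7%) were found in all 6 libraries and 7201 (44.3%) in 1 library, against 28.8% and 41.7% of the regions in other interiors. Regions of other interiors were assigned by midpoint, while those of giant genes had to lie wholly inside, which can leave out wide regions near gene ends. Counted per library, 47.5, 57.9 and 44.3% of the giant gene regions of young 1, 2 and 3 and 47.3, 52.5 and 57.6% of those of old 1, 2 and 3 were found in all 6. The mean was 51.2 ± 5.72% against 55.8 ± 4.84% in other interiors (SD, n = 6), 4.59 percentage points lower, and lower in each library (exact sign-flip permutation p = 0.031, adjusted over 4 comparisons 0.031). Among the 50000 strongest peaks the shares of regions in all 6 were 38.3% in giant genes and 46.0% in other interiors.

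Old 2 alone gave 1951 giant gene regions found in no other library, 25.5% of its regions there, where the other libraries gave 764 to 1228. Without old 2, 30.6% of giant gene regions were found in all 5 remaining libraries and 39.2% in 1, against 34.3% and 37.8% in other interiors. Regions found in 1 library had median percentiles of 13.0 to 14.7 and median fold enrichments of 2.86 to 2.95 over the local background, by the authors' caller. Regions found in all 6 had median percentiles of 64.3 to 71.2 and fold enrichments of 3.93 to 4.77, and were wider, at a median of 427 bp against 69 bp. The private regions of giant genes were thus mostly faint and short. Widths were alike in other interiors, with medians of 420 bp for regions in all 6 and 67 bp for regions in 1. A region found in all 6 joins at least 1 peak from each library, so part of the gap in width follows from merging.

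The most strongly shared regions, ranked by their weakest library, lay in genes for signalling proteins and in a cluster of gene models. The top region (chr19:31082620-31083411) lay in Prkg1, a cGMP-dependent kinase gene, over the Cstf2t start printed above, with percentiles of 99.8 to 99.97 in the 6 libraries and fold enrichments of 11.7 to 15.5. The next lay in Psd3, an Arf exchange factor gene (chr8:68157066-68157670), in Arhgap24, a Rac GTPase-activating protein gene (chr5:102576685-102577401), in the overlapping models Gm37013, Gm38666 and Gm38667 (chr18:37643699-37644595), and in Inpp4b, a phosphoinositide phosphatase gene (chr8:81867017-81867680). Their weakest percentiles ran from 98.3 to 99.0. None of these 4 overlapped a RefSeq promoter window, and the Inpp4b region lay 525.1 kb from the annotated start of its gene.

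Annotated starts accounted for few of the regions. RefSeq gave 446 promoter windows (250 bases before to 50 after a start) inside giant genes, of which 126 (28.3%) overlapped a region and 88 (19.7%) a region found in all 6 libraries. The latter share was 47.0% over all 32619 windows and 41.0% over windows inside other genes. It was 51.0% at the starts that lie at the ends of giant genes. Among the 446 windows it was 33.8% for the 142 inner starts of the giant gene itself and 31.25% for the 32 starts of other protein-coding genes hosted inside. It was 11.03% for the 272 starts of hosted genes of other types, which made up most of the 446. Of the member regions, 123 (0.757%) overlapped a window, against 1.68% of regions inside other genes. Those were assigned by midpoint, so some may reach into the 1 kb at a gene end, which member regions could not. The 2 shares are therefore not fully alike.

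Windows inside giant genes, most of them starts of hosted genes of other types, differed in base composition from promoters at large. The kinds of start were not separated here. The median G and C content was 47% against 53% over all windows, and GGGCGG on either strand occurred in 16.4% against 35.9%. Among windows with a region in all 6 libraries these shares were 34.1% inside giant genes, 52.4% inside other genes and 61.8% overall. TGANTCA, the AP-1 site, occurred in 9.09% of the giant gene windows with such a region and 8.30% of all giant gene windows, and GAGGAAGT, a PU.1-type ETS site, in 3.41% and 2.91%, with 7.85% and 3.22% over all windows. These are matches of letters in 300 bases on both strands, and matches of different motifs may share end letters.

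Density along the gene could be read for the 179 giant genes whose strand the promoter table gives. At 1 to 10 kb inside the gene the 5′ side held 10.5 ± 1.48 peaks per 100 kb and the 3′ side 7.17 ± 0.55 (SD, n = 6). From 10 to 50 kb the order turned, with 5.37 ± 0.45 on the 5′ side and 7.50 ± 0.50 on the 3′ side, and the 3′ side stayed higher at 50 to 100 kb (4.82 and 6.47), at 100 to 250 kb (4.83 and 5.47) and from 250 kb to the middle (2.93 and 3.52). In genes of 100 to 500 kb the 5′ side was the denser at every distance, with 17.7 against 12.8 at 1 to 10 kb and 13.7 against 12.5 at 10 to 50 kb. Each of these 9 differences had the same sign in all 6 libraries (exact sign-flip permutation p = 0.031, adjusted over 18 comparisons 0.0331). On the 50000 strongest peaks the giant genes kept the 3′ excess beyond 10 kb, but at 1 to 10 kb the sides differed by less than the spread (1.00 and 1.04, exact sign-flip permutation p = 0.69).

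**Figure D2:**
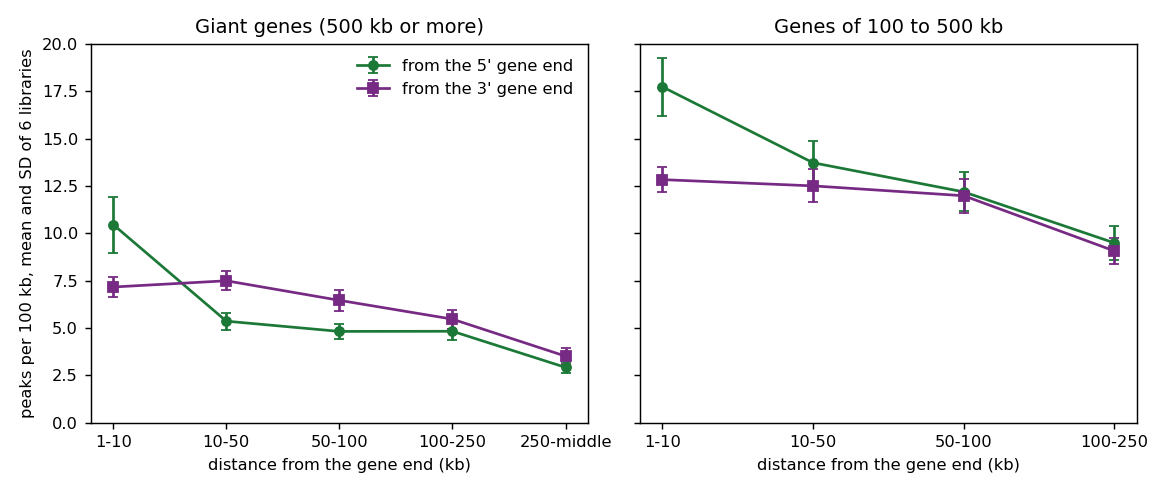
Peaks per 100 kb by distance from the 5′ and the 3′ gene end, in kb, for giant genes (left) and genes of 100 to 500 kb (right); points are means and bars SD of 6 libraries. In giant genes the 5′ line starts at 10.5 and falls below the 3′ line from 10 kb on, while on the right the 5′ line lies above or on the 3′ line.

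Giant genes differed far more among themselves than the ages did. The median gene held 3.17 peaks per 100 kb, with a range of 0 to 26.9, and 50 of 227 genes lay under 1. By contrast 20 genes lay above 13.4, the density of other gene interiors. Across the 227 genes the density in young and old libraries had a Spearman rank correlation of 0.976, and longer genes were sparser (rank correlation of span with density -0.30); both are descriptions across genes that share the same libraries. The longest stretch without any region ran to a median of 105 kb, and 8 genes had such a gap of over 500 kb.

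The densest giant gene was Foxp1, a forkhead transcription factor gene (chr6:98925342-99522746), with 27.7 ± 2.13 peaks per 100 kb in young and 26.2 ± 2.61 in old libraries (SD, n = 3 each). Its 231 regions included 84 found in all 6 libraries, and no gap between regions exceeded 15.4 kb. Lpp, which encodes a focal adhesion protein, followed at 24.2 over the 6 libraries, then Rad51b, a homologous recombination gene, at 23.8, Arhgap26, a GTPase-activating protein gene, at 22.7, and Nav2 at 21.6. None of these 5 was called changed with age, with limma adjusted p between 0.24 and 0.95. By peaks among the 50000 strongest, Foxp1 led with 38, 40 and 40 in young 1, 2 and 3 and 36, 40 and 39 in old 1, 2 and 3. Arhgap26 had a mean of 38.2, Pde4d, a cAMP phosphodiesterase gene, 34.2, Lpp 29.7, and Rad51b and Elmo1, which encodes an engulfment adaptor of Rac signalling, 29.3 each.

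At the other end, Skint5, of a family of immunoglobulin-like genes of skin and thymus, had no peak in any library. Dach2, a transcription cofactor gene, had 1 peak in 1 library, Pcdh11x, a protocadherin gene, 2 in 1 library, Il1rapl2, an interleukin 1 receptor-like gene, 1 or 2 in each library, and Fstl5, a follistatin-like gene, at most 1. Dach2, Pcdh11x and Il1rapl2 lie on X, where 8 of 11 giant genes had under 1 peak per 100 kb and the median was 0.297, against 42 of 216 and a median of 3.45 on autosomes. The 5 longest genes were Dmd, the dystrophin gene (2390 kb), Ptprd, a receptor phosphatase gene, Cntnap2, of the neurexin family, Lsamp, a cell adhesion gene, and Lrp1b, of the LDL receptor family. Dmd had a stretch of 726 kb without any region and of 2099 kb without a region found in all 6.

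**Figure D3:**
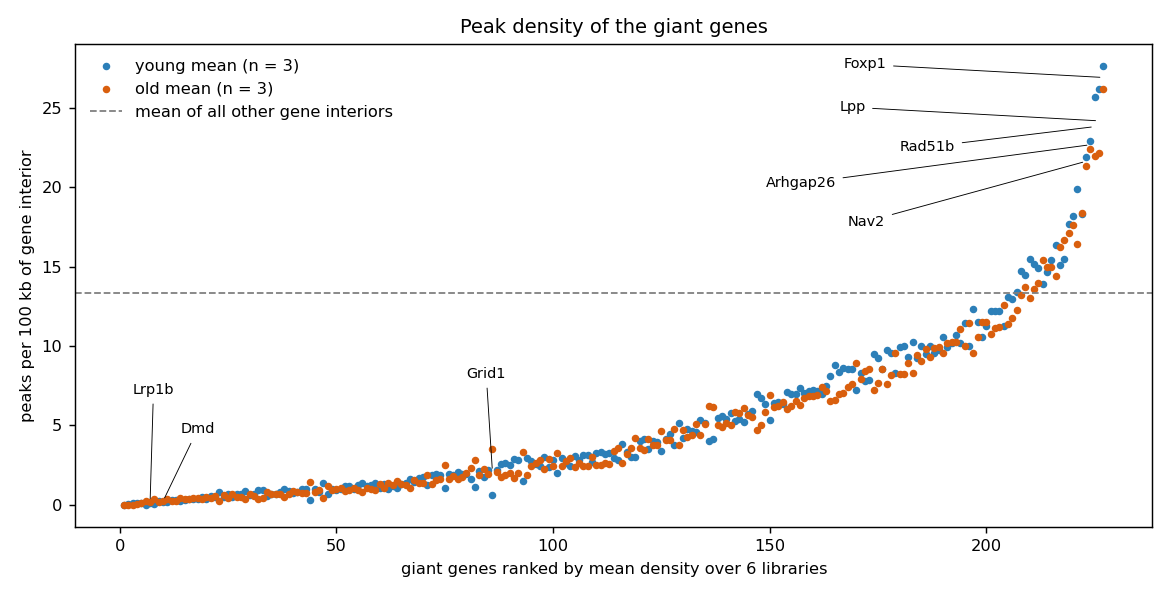
Peaks per 100 kb of gene interior for the 227 giant genes, ranked by their mean over 6 libraries, with young and old means (n = 3 each) as separate points and the mean of all other gene interiors as a dashed line at 13.4. Most genes lie far below the line, 20 lie above it, and young and old points of a gene lie close together except for a few such as Grid1.

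Lists of giant genes by function also differed in density. The lists were chosen with earlier results of these data known, so their medians are a description and not a test. The 49 giant genes of synaptic adhesion and scaffolds had a median of 1.83 peaks per 100 kb, the 7 glutamate and GABA receptor genes 0.852, the 16 cadherin and guidance genes 2.36, the 15 ion channel genes and partners 2.63, the 18 matrix and glycan genes 2.75 and the 15 common fragile site genes 2.87, beside 3.17 for all 227. The 31 signalling enzymes and GTPase regulators stood at 6.59 and the 20 genes listed as transcription and chromatin factors at 8.16. The 36 genes listed as used by macrophages and other leukocytes stood at 9.40, where 10 of the 36 exceeded other gene interiors. These lists were broad. The transcription list also held Lpp, the focal adhesion gene. The leukocyte list held Lpp, the neuron navigator gene Nav2 and the recombination gene Rad51b, all among those 10, so its median does not describe leukocyte genes alone. A gene can stand in more than 1 list. The densest of the synaptic list was Ptprm, a receptor phosphatase gene, at 14.4, of the channel list Cacna1c, a calcium channel gene, at 15.2, and of the fragile site list Wwox at 11.7.

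To ask which giant genes changed with age, the base pairs covered by peaks in each gene interior were scaled to the library's sum over all interiors and tested with limma on log2(bp + 200) over 9130 genes with a mean of 500 bp or more. Of the 227 giant genes, 205 passed this filter and 22 were not tested. At an adjusted p under 0.05, 11 giant genes were wider in old libraries, where 0.657% of all genes tested were called wider, and 15 were narrower, where 0.756% were called narrower. Called genes thus made up 12.7% of the giant genes tested, against 1.41% of all genes, 2.97% of genes of 100 to 500 kb and 0.623% of shorter genes. Giant genes also cover more base pairs than short ones, which changes what the test can detect. Among genes with 2266 to 12806 covered bp, the middle range of the giant genes, the shares were 12.6, 2.38 and 0.545%. Old and young values did not overlap in 75 giant genes (36.6%), 30 higher and 45 lower in old, where 19.5% of all genes tested had this. The share was 25.2% in genes of 100 to 500 kb. Within the shared range of covered length it was 38.8% in giant genes and 25.1% in genes of 100 to 500 kb.

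These counts depended on single libraries and on which peaks entered. Leaving out young 1 left 4 wider and 5 narrower, and leaving out old 3 left 5 and 7. Leaving out young 2 left 6 wider and old 2 left 7 wider, leaving out young 3 left 7 narrower, and leaving out old 1 gave 26 narrower. On peaks with a −log10 q of at least 5, 1 was wider and 4 narrower. Of the 26 called genes, 18 passed the filter there and 3 kept their call. With numbers of peaks in place of covered length there were 1 and 1 (2 kept), without the filter 4 and 5 (9 kept), and with the covered length of the library as a covariate 7 and 5 (11 kept). Without scaling, the median change of all genes moved to -0.15 and 1 giant gene was wider and 2 narrower (3 kept). The shares of all genes called under these settings are not given here. The counts therefore do not show whether giant genes moved apart from other genes. The 8 genes called in every fit with 1 library left out were Grid1, B3galt1, Csmd1, Dpyd, Mgat4c, Esrrg, Fat3 and Macrod2. Of the 26 calls, Dpyd and Erbb4 passed the filter only through their young values, so their calls depend on it.

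Among genes wider in old, Grid1, a glutamate receptor delta subunit gene, changed most. Its covered length was 795, 886 and 546 bp in young 1, 2 and 3 and 3455, 4689 and 3226 bp in old 1, 2 and 3. All old libraries lay well above all young ones, with a log2 change of 2.08 (SE 0.17, limma adjusted p = 5.8e-05). The gain was spread out: of 16 tiles of 50 kb along the gene, 14 were higher in old, 0 lower and 2 empty, and the largest tile held 16.1% of the difference. Of its 58 regions, 43 were found in 1 library, 3 in all 6 and 6 in the 3 old libraries only, so that most of its regions were private to a library.

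B3galt1, a galactosyltransferase gene (chr2:67565689-68122882), had 3312, 2370 and 3043 bp in young 1, 2 and 3 and 6108, 5468 and 5088 bp in old 1, 2 and 3. The groups lay apart (log2 change 0.90, SE 0.12, limma adjusted p = 0.0013), and here a single tile (chr2:68066689-68116688) held 52.1% of the difference. Csmd1, which encodes a large membrane protein with CUB and sushi domains, had 9644, 7762 and 10085 bp in young 1, 2 and 3 and 14549, 14377 and 13346 bp in old 1, 2 and 3. Again the groups did not overlap (log2 change 0.62, SE 0.085, limma adjusted p = 0.0022), and 27 of 33 tiles were higher in old. The other genes wider in old were Gabrg3, a GABA receptor subunit gene (log2 change 1.48), Car10, a carbonic anhydrase-related gene (0.93), Pde1c, a calmodulin-dependent phosphodiesterase gene (0.79), the calcium release channel gene Ryr2 (0.52), the acid-sensing channel gene Asic2 (0.45), the cadherin gene Cdh13 (0.43), the adhesion gene Opcml (0.43) and the nuclear receptor gene Rora (0.23). Their limma adjusted p lay between 0.011 and 0.034.

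Rora was the most open of these, with 24409, 23848 and 24064 bp in young 1, 2 and 3 and 27533, 27631 and 29653 bp in old 1, 2 and 3. The old values were all higher, by a small margin. Rora lost its call without young 1, young 2, young 3 or old 3, with a limma adjusted p of up to 0.086. Ryr2, Cdh13 and Opcml were likewise called in 2 of the 6 fits with a library left out, Asic2 and Pde1c in 3 and Gabrg3 in 4, with limma adjusted p of up to 0.16. Car10 lost its call without young 1 (limma adjusted p = 0.063), and on the 50000 strongest peaks its log2 change was -0.16.

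Among genes narrower in old, Dpyd, which encodes the enzyme of the first step of pyrimidine breakdown, changed most. It had 1789, 1231 and 1583 bp in young 1, 2 and 3 and 351, 280 and 475 bp in old 1, 2 and 3. All old libraries fell below all young ones, with a log2 change of -1.61 (SE 0.18, limma adjusted p = 0.00048). Its old mean of 369 bp lay under the 500 bp filter, so it was tested only because of its young values, and the same held for Erbb4, with 480 bp in old. Dpyd was lower in 8 of 18 tiles, higher in 1 and empty in 9, and 3 of its 21 regions were found in the 3 young libraries only. Mgat4c, an N-acetylglucosaminyltransferase gene, had 1776, 1634 and 1840 bp in young 1, 2 and 3 and 766, 666 and 546 bp in old 1, 2 and 3, without overlap (log2 change -1.19, SE 0.15, limma adjusted p = 0.00074).

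Fat3, an atypical cadherin gene (chr9:15910189-16502681), was among the more open of the genes narrower in old. Its covered length was 18542, 17975 and 17364 bp in young 1, 2 and 3 and 13226, 13499 and 12361 bp in old 1, 2 and 3. The groups lay far apart for their spread (log2 change -0.46, SE 0.054, limma adjusted p = 0.00048), and 11 of 12 tiles were lower in old. Macrod2, an ADP-ribose hydrolase gene of the fragile site list, had 15239, 16321 and 16916 bp in young 1, 2 and 3 and 12243, 12016 and 11597 bp in old 1, 2 and 3, also without overlap (log2 change -0.43, SE 0.057, limma adjusted p = 0.0013), with 30 of 40 tiles lower. Esrrg, an orphan nuclear receptor gene, had a log2 change of -0.63 (SE 0.098, limma adjusted p = 0.0048), but 0.04 when peaks were limited to a −log10 q of at least 5.

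Other genes narrower in old were the neuregulin receptor gene Erbb4 (log2 change -1.13), the contactin gene Cntn4 (-1.02), the netrin receptor gene Dcc (-0.91), Csmd3 (-0.84), the potassium channel gene Kcnd2 (-0.80), the sortilin-family gene Sorcs1 (-0.68), the glycosyltransferase family gene Galntl6 (-0.66), Lsamp (-0.59) and the transcription factor gene Sox6 (-0.52). Their limma adjusted p lay between 0.013 and 0.033. Each of them lost its call without at least 1 library, and Dcc was called in 1 of 6 such fits. The genes narrower in old were sparser than those wider in old, with a median of 1.138 against 3.62 peaks per 100 kb, and 6 of the 15 lay under 1 peak per 100 kb against 0 of the 11. Sparse genes pass the filter on few base pairs, so their values rest on few peaks.

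**Figure D4:**
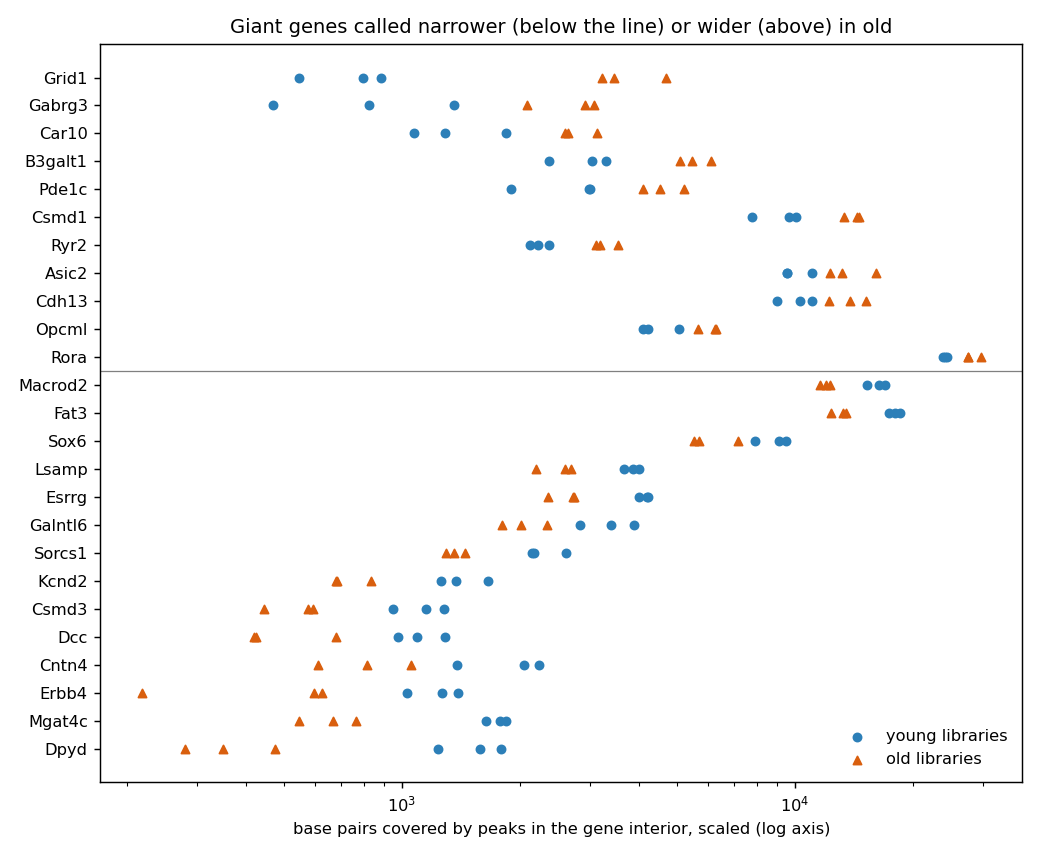
Scaled base pairs covered by peaks (log axis) in the interior of 25 of the 26 giant genes called by limma, with young libraries as circles and old libraries as triangles, ordered by log2 change from Dpyd (-1.61) to Grid1 (2.08). Genes below the line were narrower in old and genes above it wider; circles and triangles do not overlap in any of the 25 rows.

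**Figure D5:**
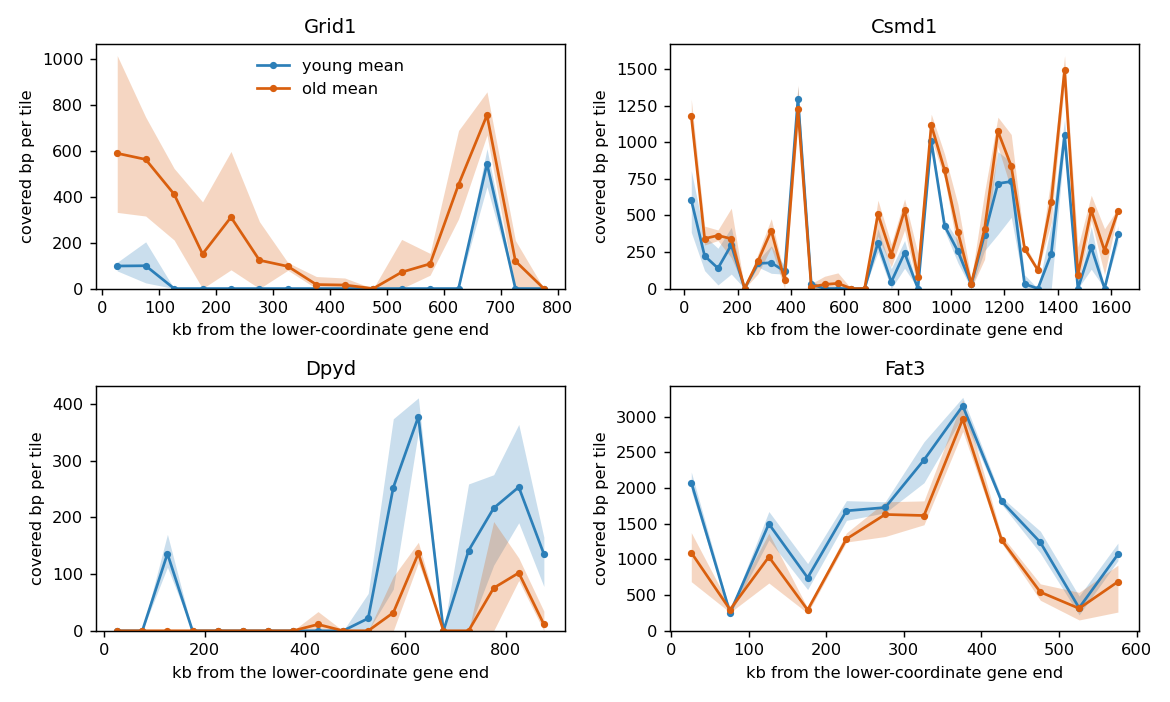
Scaled base pairs covered by peaks per 50 kb tile along Grid1, Csmd1, Dpyd and Fat3, by distance in kb from the lower-coordinate gene end; lines are means and bands the range of 3 libraries per age. In Grid1 14 of 16 tiles were higher in old, in Csmd1 27 of 33, while in Dpyd 8 of 18 and in Fat3 11 of 12 were lower.

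In no functional list did most members change, and the counts stand beside 26 called of the 205 giant genes tested (12.7%) and 1.41% of all genes. Of the 44 synaptic adhesion and scaffold genes tested, 2 were wider and 3 narrower, and of the 5 glutamate and GABA receptor genes 2 were wider and 0 narrower. Of 15 channel genes and partners 1 was wider and 1 narrower, of 14 cadherin and guidance genes 1 and 2, of 14 fragile site genes 0 and 2, of 18 transcription and chromatin factors 1 and 2, of 28 signalling genes 1 and 2, and of 18 matrix and glycan genes 1 and 3. Of the 36 genes of the leukocyte list, 1 was wider (Rora) and 1 narrower (Dpyd, which passed the filter only through its young values). The median log2 change of the lists ran from -0.38 for cadherins and guidance to 0.063 for channels, beside -0.03 for all giant genes and 0.0092 for all genes tested.

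When each library was limited to its 50000 strongest peaks, 147 giant genes passed the filter. Of these 11 were wider in old, where 2.31% of all genes tested were, and 7 were narrower, where 1.38% were. Old and young values did not overlap in 57 of the 147 (38.8%), where 23.9% of all genes tested and 30.6% of genes of 100 to 500 kb had this. Among genes with 1401 to 5365 covered bp, the middle range of the giant genes here, the shares were close. They were 35.6% of giant genes and 33.6% of genes of 100 to 500 kb. In that range 9.59% and 4.97% were called. B3galt1, Csmd1 and Asic2 were wider and Lsamp, Fat3 and Macrod2 narrower in both kinds of list. Of the 26 genes called on deposited lists, 14 could be tested on the strongest peaks and 12 of them kept their direction, and the 18 called on the strongest peaks all had the same direction on the deposited lists. The strongest peaks are part of the deposited lists of the same libraries, so a shared direction is partly built in and is no separate support. Grid1 and Dpyd were among the genes that could not be tested, since they held too few strong peaks.

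Of the 18 genes called on the strongest peaks, 5 had a mean under the 500 bp filter at 1 age and passed it only through the other, so a gene as low at both ages would not have been tested; they were B3galt1, Dpp10, Lsamp, Marchf1 and Rgs6. B3galt1 had no strong peak in any young library and covered 1176 ± 379 bp in old (SD, n = 3). Among genes called on the strongest peaks only, chosen here after their values were seen, Trpm3, a cation channel gene, rose from 2974 ± 447 to 5527 ± 241 bp (SD, n = 3 each, log2 change 0.86, limma adjusted p = 0.015). Dpp10, a potassium channel partner gene, fell from 1188 ± 47.5 to 111 ± 193 bp (log2 change -2.32, limma adjusted p = 0.031), and Nav3, a neuron navigator gene, fell from 2448 ± 572 to 977 ± 176 bp (log2 change -1.16, limma adjusted p = 0.025). On the deposited lists these 3 had log2 changes of 0.25, -0.52 and -0.72 with limma adjusted p between 0.054 and 0.088. The other 7 wider and 2 narrower genes had log2 changes of 0.43 to 2.12 and of -2.10 to -0.80 on the strongest peaks, and of 0.03 to 0.52 and -0.33 to -0.0097 on the deposited lists, where none of them was called. Marchf1, a ubiquitin ligase gene, had the widest gap, with -2.10 on the strongest peaks and -0.0097 on the deposited lists (limma adjusted p = 0.032 and 0.98).

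Regions present at a single age were few. On the deposited lists 274 member regions (1.69%, where 1.42% of all merged regions did so) had a peak in all 3 young libraries and none in the old, and 103 (0.634%, where 0.513% did) had the reverse. On the 50000 strongest peaks the order turned, with 58 (3.07%, where 2.59% did) in young only and 101 (5.34%, where 3.29% did) in old only. The counts changed with the libraries used: without young 2 there were 809 in the 2 remaining young libraries only, and without old 1 635 in the young only, while 217, 263 and 245 were found in the old only without young 3, old 2 and old 3. With a library left out the rule asks for fewer libraries and is easier to meet. The share over all merged regions was not computed for these settings. The 274 regions lay in 135 giant genes and the 103 in 67, and 37 and 21 of them lay in the 26 called genes, which held 1604 (9.88%) of all member regions. Those genes were called for a change of covered length in the same libraries, so these counts are a description.

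The young-only regions that ranked best in their weakest library lay in Sorcs1 (chr19:50446120-50446594), with percentiles of 71.7, 66.8 and 67.1 in young 1, 2 and 3, in Pde4b (chr4:102352127-102352365), with 72.0, 64.8 and 70.3, and in Lsamp (chr16:40521428-40521606), with 57.8, 65.0 and 75.5. Each was thus of middling strength where it was found. The old-only regions lay in Kalrn, a GTPase exchange factor gene (chr16:34278423-34278748), with percentiles of 61.8, 59.3 and 67.3 in old 1, 2 and 3, in Cdkal1, a tRNA-modifying enzyme gene (chr13:29467677-29467811), with 60.2, 54.8 and 55.6, and in Grid1 (chr14:34969137-34969416), with 70.3, 61.5 and 53.5. No peak called in a library means only that none passed the authors' threshold there, and the weakest percentile of the age-only regions had a median of 19.5 for young and 15.9 for old.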

How the data were processed

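The 6 libraries are Omni-ATAC libraries of 50000 cells each. Per the submitters' processing notes, the build was mm10 and the tools were MACS2 (2.1.0.20140616), Bowtie2 (2.2.6), cutadapt (1.14), Trim Galore (0.4.4), Picard and SAMtools, with no roles stated. How duplicates, read ends and problem regions were handled is not given in the sources used here. A separate MACS2 broad peak list was deposited by the authors for each library. A deposited peak carries a −log10 p-value, a −log10 q-value (never below 1), a score that repeats 10 times the latter without its decimals, and its fold, the ratio of signal to local background. These values ranked peaks within a list only.

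Gene spans and promoter windows came from RefSeq (GRCm38.p6, the same primary chromosomes as mm10); exons and introns were not separated. Densities counted peaks by midpoint, and merged regions of the comparison parts were assigned by midpoint too. The covered base pairs per gene interior entered limma (3.58.1, R 4.3.3; trend, robust empirical Bayes, Benjamini-Hochberg) on log2(bp + 200), so fold changes understate sparse genes. Other values came from Python 3.11.15, numpy 2.4.6, pandas 2.3.3 and scipy 1.17.1, and figures from matplotlib 3.10.9. The limma fit was tested on simulated data of 9130 genes for old against young and recovered 100% of log2 changes of 1 and 100% of 2, with 10 false calls. The simulated errors were normal and independent, without deviations shared by the genes of a library. Changes below 1, as most called giant genes had, were not simulated. The recovery therefore does not show how reliable the calls on the real libraries are. Chromosome Y and other sequences stayed out.

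The members and gene lists were chosen with earlier results of these data known. The text names called genes (12 per direction with the largest change and, since 3 more were called, Sox6, Fat3 and Macrod2), the 5 densest, sparsest and longest, the 5 with most strong peaks, 2 members per list by p and its densest, and the best-ranked regions; some genes that this rule names are not reported here. Positions along genes, tiles, the shared range of covered length and base composition of promoters were added after values were seen. Alternatives were stricter or equal-length peak lists, numbers of peaks, other pseudocounts, scalings, filters, gene ends and spans, a replicate block, a covariate and left-out libraries.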

Additional observations from a re-analysis of the deposited data

Results flagged for a closer look

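Peaks outside the chromosomes used for the giant genes were present in every library. Chromosome Y and unplaced sequences held 176, 187 and 189 peaks in young 1, 2 and 3 and 185, 191 and 194 in old 1, 2 and 3. They were flagged because they are a signal that no comparison above used, and there is no control library to set them against.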

How the results depend on the processing

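Replicate numbers showed no pairing of the libraries: same-numbered young and old libraries had correlations of their deviations of 0.078, 0.11 and -0.14. Those with different numbers ran from -0.26 to 0.23. So few values cannot show whether equal numbers were processed together, and the labels do not say. With the replicate block, 12 giant genes were wider and 20 narrower, and all 26 calls were kept; the density difference was -0.22 (exact sign-flip permutation p = 0.75). The calls moved under other settings: 1 wider and 4 narrower at a −log10 q of at least 5, 7 narrower on the 50000 strongest peaks, 1 and 1 with numbers of peaks, 1 and 2 without scaling, 4 and 5 without the low-value filter, and 7 and 5 when the covered length of the whole list was a covariate. Added after seeing the data, the strongest peaks with the replicate block gave 5 and 4. Leaving out 1 library gave 4 to 14 wider and 5 to 26 narrower. Shares of all genes called are given above only for the deposited lists and the 50000 strongest peaks. The other counts therefore cannot show a change particular to giant genes. Of 460 values of the 26 called genes under the alternatives, 282 kept their call, 172 kept their direction without it and 6 reversed: Car10 (-0.048 at −log10 q 5, -0.16 on the strongest peaks with or without block), Esrrg (0.039 at −log10 q 5) and Galntl6 (0.0062 on the strongest peaks with or without block).

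The density difference by age reversed to 0.036 on the strongest peaks. The difference of the ratio, 0.0020, reversed to -0.010 and -0.00023 at −log10 q of 2 and 5, -0.0017 and -0.0028 for giant genes from 300 kb and 1 Mb, -0.0037 in covered base pairs, and -0.0070 and -0.0016 without young 2 and old 2, within a range of -0.0070 to 0.0080 over the 6 left-out libraries. Without 1 library the log2 density ratio ran from -1.44 to -1.42 against genes of 100 to 500 kb and from -1.58 to -1.55 against all other interiors, and the sharing difference from -4.82 to -3.99 points; 5 libraries cannot give a p below 0.0625. Regions of a single age numbered 58 (young) on the strongest peaks, and 334 to 809 (young) and 116 to 263 (old) without 1 library, settings added after seeing the data. The rule is easier to meet with 1 library less, and no share over all merged regions was computed for those settings. Read depth is unknown and limits what absence of a peak can show.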
